A study of Mus musculus with 101 samples.

Results

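The genes described here are the G1 cyclins, CDK inhibitors and Rb proteins of fetal mouse germ cells: the D-type cyclins Ccnd1, Ccnd2 and Ccnd3, the E-type cyclins Ccne1 and Ccne2, the inhibitors Cdkn1b, Cdkn2b and Cdkn2d, and the pocket proteins Rb1 and Rbl2. They were chosen by name, as genes that control entry into G0 arrest in germ cells of the testis, and make up 10 of the 15423 genes in the deposited table. All 10 passed the filter on low values in each fit.

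D-type cyclins activate Cdk4 and Cdk6, and E-type cyclins activate Cdk2. These kinases phosphorylate Rb1 and its relatives, which then release E2F factors and let the cell pass from G1 into S phase, while INK4 inhibitors such as Cdkn2b (p15) and Cdkn2d (p19) block Cdk4 and Cdk6 and Cdkn1b (p27) blocks chiefly cyclin E with Cdk2. In the fetal gonad, germ cells of the ovary stop dividing to enter meiosis, while those of the testis arrest in G0/G1.

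The study dosed pregnant F0 mice by mouth with benzo[a]pyrene (BaP) in sesame oil, or with the oil alone, and sequenced RNA of germ cells from single gonad pairs of E13.5 embryos in the F1, F2 and F3 generations. All embryos were of strain OG2 on a C57BL/6J background, which carries EGFP under the Pou5f1 promoter, and the cells were enriched by sorting on EGFP. Dosing ran from E6.5 to E11.5 for F1 and from E6.5 to E15.5 for the F2 and F3 lines, at 0 (vehicle), 0.033 (low), 0.2 (middle) or 2 (high) mg/kg per day. The table holds 48 XX and 53 XY embryos from 56 litters, and its values are counts that the authors normalized, called normalized counts here.

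The vehicle groups held 5 XX and 5 XY embryos in F1, 6 and 6 in F2, and 6 and 6 in F3. At the low dose there were 2 XX and 2 XY embryos in F1, 3 and 3 in F2, and 4 and 4 in F3. At the middle dose there were 5 XX and 6 XY embryos in F1, 3 and 3 in F2, and 2 and 4 in F3. At the high dose there were 5 XX and 8 XY embryos in F1, 3 and 3 in F2, and 4 and 3 in F3.

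The libraries carried the markers that their labels call for. The 6 markers of fetal germ cells, of which Dppa3 was the most abundant, summed to a mean of 3649 ± 453 (SD) normalized counts in the 17 vehicle XX embryos and to 4000 ± 669 in the 17 vehicle XY embryos. The 4 markers of meiotic entry, led by Sycp3, summed to 1366 in XX and 258 in XY. The 3 of 4 male germ cell markers in the table, led by Lefty2 in XY and by Tdgf1 in XX, summed to 0.553 in XX and 107.1 in XY. Of these markers, Nanos2 was at most 0.456 in any XX embryo, vehicle or exposed. Eif2s3y, on the Y chromosome, was at 0 in each XX embryo and ran from 109 to 380 in the XY embryos.

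RNA of other cell types was also present. The 6 Sertoli markers, led by Aard, summed to 21.7 ± 6.73 in vehicle XX and 259 ± 138 in vehicle XY. In XX, Aard alone had a mean of 21.1 and the other 5 had means under 0.5, so the XX sum rests on 1 gene. Pregranulosa markers (4 of 5 in the table, led in XX by Wnt4) summed to 3.34 and 1.37, stroma markers (6 of 6, led by Dcn) to 2.40 and 6.13 with medians of 1.06 and 1.98, endothelial markers (4 of 5, of which Pecam1 alone had 32.8 and 23.6 and 2 had means under 0.5) to 43.9 and 31.6, macrophage markers (6 of 7, led by C1qb) to 14.4 and 11.5, and fetal Leydig markers (5 of 5, led in XY by Hsd3b1) to 3.32 and 8.55. Erythroid markers (5 of 8, led by Hba-a1) had means of 14.5 and 426 but medians of 1.40 and 1.41. The highest stroma sums of vehicle embryos were in litter D1388 (F3), at 21.8 in the XX embryo D1388.3 and 69.2 in the XY embryo D1388.1.

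Some libraries stood apart. The 11 deepest libraries, with 21247642 or more recovered reads each, were all from F1, and the largest of the rest had 12211582. The F3 XY embryo D1390.5 at the middle dose correlated almost as well with the XX mean profile (r = 0.933) as with the XY mean profile (r = 0.940). The next closest were exposed F3 XX embryos, with r to the XX and the XY mean of 0.938 and 0.915 in D3744.1 and 0.952 and 0.912 in D3501.3. In D4021.1 these were 0.885 and 0.841, and in E0103.2 0.932 and 0.885. All calls over generations that are given below for single members stood without the deep libraries and, separately, without D1390.5.

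Levels were compared between genes per kilobase of exon, with the length taken over all annotated exons of a gene. It was 4709 bases for Ccnd1 and 8775 for Ccnd3. Which transcripts the cells expressed was not tested, so orders and shares per kilobase depend on these lengths. In vehicle XX embryos the order of mean levels per kilobase was Cdkn2d (71.9), Ccne1 (29.9), Ccne2 (28.7), Ccnd1 (12.8), Ccnd3 (4.96), Rb1 (4.14), Cdkn2b (1.46), Ccnd2 (0.571), Rbl2 (0.381) and Cdkn1b (0.121). Of the neighbours in this order, 4 pairs differed by no more than the larger of their SDs: Ccne1 with Ccne2, Ccne2 with Ccnd1, Ccnd3 with Rb1, and Ccnd2 with Rbl2. In vehicle XY embryos the order was Cdkn2d (24.9), Ccne1 (22.2), Ccne2 (19.5), Ccnd3 (4.79), Rb1 (2.82), Cdkn2b (1.87), Ccnd1 (1.48), Ccnd2 (1.17), Rbl2 (0.433) and Cdkn1b (0.276). Here Ccnd3 differed from Rb1, and Ccnd2 from Rbl2, by more than the larger SD, and the other 7 pairs of neighbours did not. Ccnd1 was thus in 4th place in XX and in 7th place in XY.

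Ccnd1 (cyclin D1) was high in XX and low in XY germ cells. In the 17 vehicle XX embryos it ran from 27.6 to 89.9 normalized counts with a median of 67.2, and in the 17 vehicle XY embryos from 1.69 to 15.9 with a median of 5.92. Each XX embryo lay above each XY embryo. The means were 60.4 ± 20.1 and 6.96 ± 3.90, a log2 difference of 3.12 (SE 0.27), or 8.67-fold, with limma's adjusted p = 7.57e-19. The libraries are bulk RNA, so fewer cells that express a gene and less of its RNA per cell cannot be told apart, here or below.

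Exposed embryos showed the same direction for Ccnd1 with some overlap. The 31 exposed XX embryos ran from 7.47 to 105 with a median of 46.3, and the 36 exposed XY embryos from 1.39 to 21.1 with a median of 7.35. Of the exposed XX embryos 27 lay above every exposed XY embryo and 4 did not: C4219.4 (F1, high dose) at 19.5, D3501.3 (F3, low) at 10.99, D1464.1 (F3, middle) at 19.9 and E0103.2 (F3, high) at 7.47. Only 1 XY embryo, D2587.2 (F1, high) at 21.1, reached above 15.9. The log2 difference in exposed embryos was 2.62 (SE 0.19, limma's adjusted p = 3.85e-23).

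In the same 4 XX embryos the markers of meiotic entry lay under the vehicle XX median. Their summed values were 885 in C4219.4, 260 in D3501.3, 321 in D1464.1 and 410 in E0103.2, against a median of 1233 and a range of 290 to 4522 in vehicle XX embryos. Their male germ cell sums were 1.69, 5.12, 7.66 and 7.61, against 0.0899 to 1.73 (mean 0.553) in vehicle XX embryos, so 3 of the 4 lay above every vehicle XX embryo. The sums of the 6 somatic lists, without the erythroid list, were 134, 139, 111 and 131, against 66.0 to 121 in vehicle XX. Here too 3 of the 4 lay above every vehicle XX embryo. Erythroid sums of the 4 were 6.26, 4.25, 2.64 and 1271, against 0 to 223 in vehicle XX. Their Sertoli sums were 70.1, 19.0, 35.5 and 65.8, and their germ cell sums 4195, 3422, 3577 and 3762. Whether any of these lists has a part in their Ccnd1 level was not tested.

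Ccnd2 (cyclin D2) lay the other way at a low level. Vehicle XX embryos ran from 2.21 to 9.11 with a median of 4.99, and vehicle XY embryos from 4.97 to 22.9 with a median of 9.98. The groups overlapped, with 9 of 17 XY embryos above every XX embryo. The log2 difference was -0.89 (SE 0.18, limma's adjusted p = 1.01e-05), and in exposed embryos it was -0.86 (SE 0.13, limma's adjusted p = 5.78e-09). When the embryos of each sex highest in somatic markers were left out, among them 1 vehicle XX and 4 vehicle XY embryos, the vehicle difference was -0.62 (limma's adjusted p = 0.000927).

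Ccnd3 (cyclin D3) did not separate the sexes. It ran from 12.8 to 103.4 with a median of 36.3 in vehicle XX embryos and from 15.1 to 74.2 with a median of 38.9 in vehicle XY embryos. The ranges overlapped almost wholly, and limma's log2 difference was -0.05 (95% interval -0.55 to 0.45, adjusted p = 0.884). In exposed embryos limma's log2 difference was -0.12 (-0.48 to 0.24, adjusted p = 0.567). Ccnd3 was the only member called in neither sex comparison over generations.

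The make-up of the D-type cyclins therefore differed between the sexes. Summed per kilobase, the 3 D-type cyclins reached 18.4 ± 4.19 in vehicle XX and 7.44 ± 2.20 in vehicle XY embryos. Ccnd1 made up 69.1 ± 15.3% of this sum in XX and 20.3 ± 9.70% in XY, Ccnd3 made up 27.8% and 64.0%, and Ccnd2 made up 3.10% and 15.7%. Without division by length, the mean normalized counts of Ccnd1 and Ccnd3 were 60.4 and 43.5 in XX and 6.96 and 42.0 in XY. The shares come from RNA, depend on the exon lengths used and say nothing of protein.

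**Figure D1:**
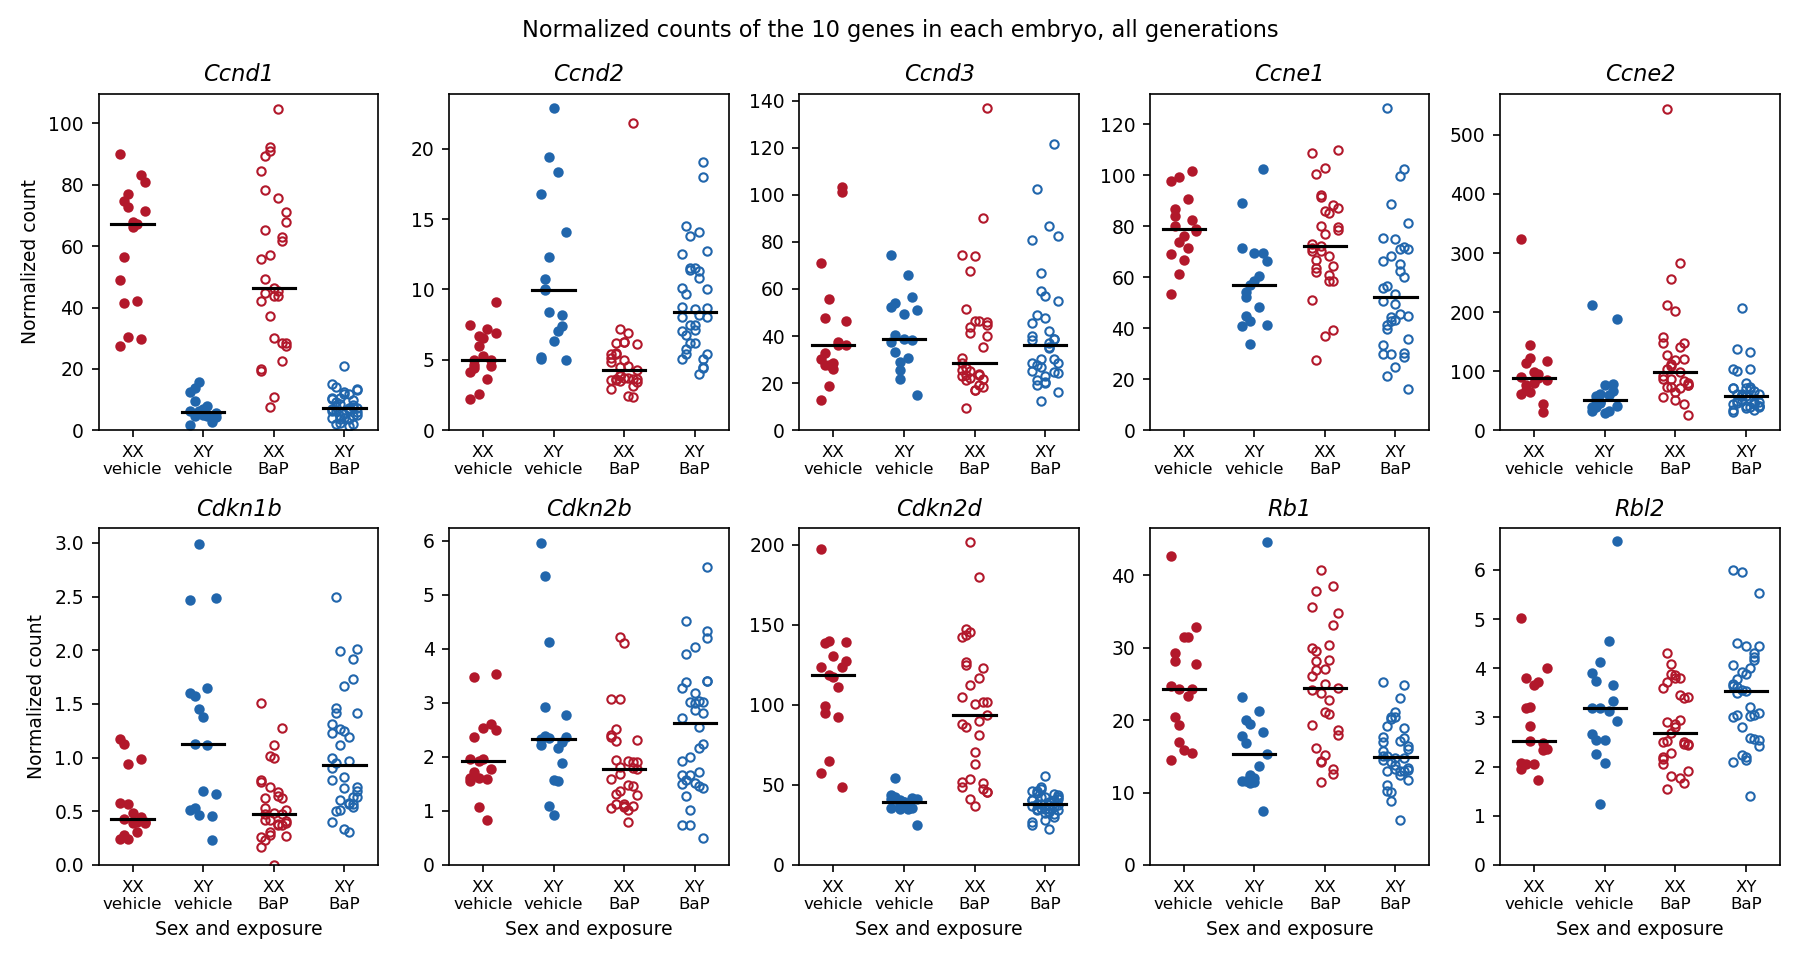
Normalized counts (y axes, starting at 0, a different scale in each panel) of the 10 genes in each embryo by sex and exposure (x axes). Filled points are vehicle embryos, open points are embryos of all BaP doses, red is XX, blue is XY, and lines are medians. Ccnd1 in vehicle embryos lies between 27.6 and 89.9 in XX and between 1.69 and 15.9 in XY.

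Both E-type cyclins were higher in XX germ cells by less than 2-fold. Ccne1 (cyclin E1) ran from 53.3 to 101.9 with a median of 79.2 in vehicle XX embryos and from 33.8 to 102.6 with a median of 56.9 in vehicle XY embryos. The ranges overlapped, but 16 of 17 XX embryos lay above the XY median. Its log2 difference was 0.47 (SE 0.17, limma's adjusted p = 0.0138), and in exposed embryos 0.52 (SE 0.12, limma's adjusted p = 9.78e-05).

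Ccne2 (cyclin E2) had a wide spread in both sexes. It ran from 31.2 to 324 with a median of 88.5 in vehicle XX embryos and from 30.2 to 212 with a median of 51.0 in vehicle XY embryos. The ranges overlapped, and 15 of 17 XX embryos lay above the XY median. Its log2 difference was 0.61 (SE 0.25, limma's adjusted p = 0.0300), and in exposed embryos 0.81 (SE 0.18, limma's adjusted p = 4.71e-05). The vehicle call of Ccne2 ended under edgeR's likelihood ratio test on recovered reads (log2 difference 0.55, adjusted p = 0.0711), under its quasi-likelihood test (0.55, adjusted p = 0.0808) and without the embryos highest in somatic markers (0.51, limma's adjusted p = 0.0514), among adjusted p-values of 0.00266 to 0.0808 over 16 alternatives. Exons of Ccne2 share 609 bases with Ints8 on the opposite strand, and the kit is not stated to mark strand, so reads of the shared stretch cannot be assigned to either gene.

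Of the 3 inhibitors among the members, Cdkn2d (p19) was the most abundant per kilobase and was higher in XX. In vehicle embryos it ran from 48.7 to 197 with a median of 119 in XX and from 25.2 to 54.3 with a median of 39.4 in XY. Of the XX embryos 16 of 17 lay above every XY embryo, and the exception, D3133.2 (F2), lay at 48.7. The XY embryos kept to a narrow range (SD 5.83 around a mean of 39.2), while the XX embryos spread widely (SD 35.7 around a mean of 113). The log2 difference was 1.46 (SE 0.16), or 2.75-fold, with limma's adjusted p = 9.55e-14, and in exposed embryos 1.20 (SE 0.11, limma's adjusted p = 1.05e-16).

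Ccnd1 and Cdkn2d, a cyclin and an inhibitor of the same kinases, varied together among embryos. Over all embryos Pearson's r between them was 0.885 on the log2 scale, and after removal of the 24 group means it was 0.646. The 4 exposed XX embryos lowest in Ccnd1 against XY had Cdkn2d values of 52.0, 36.7, 48.9 and 41.4, all within the XY range of 22.6 to 55.7. These are descriptions over embryos of shared litters.

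Cdkn1b (p27) was near the floor of detection and higher in XY. Vehicle XX embryos ran from 0.240 to 1.17 normalized counts with a median of 0.432, and vehicle XY embryos from 0.237 to 2.99 with a median of 1.13. The ranges overlapped, with 8 of 17 XY embryos above every XX embryo. The log2 difference was -0.65 (SE 0.17, limma's adjusted p = 0.000597), and in exposed embryos -0.52 (SE 0.12, limma's adjusted p = 0.000124). The lowest vehicle embryo of each sex rested on 2 reads, so the size of this difference depends on the 0.5 added before the logarithm.

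Cdkn2b (p15) was also low. It ran from 0.827 to 3.53 with a median of 1.92 in vehicle XX embryos and from 0.920 to 5.96 with a median of 2.34 in vehicle XY embryos. The groups overlapped and the log2 difference of -0.23 (95% interval -0.60 to 0.13) had limma's adjusted p = 0.284. In exposed embryos the log2 difference was -0.33 (SE 0.13, limma's adjusted p = 0.0244). That call ended without the embryos highest in somatic markers, where the log2 difference was -0.37 (limma's adjusted p = 0.0542), among adjusted p-values of 0.00305 to 0.0542 over 14 alternatives. Cdkn2d made up 97.6 ± 1.38% of the sum per kilobase of Cdkn1b, Cdkn2b and Cdkn2d, which leaves out all other inhibitors, in vehicle XX and 92.1 ± 3.44% in vehicle XY embryos.

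Of the pocket proteins, Rb1 was higher in XX. In vehicle embryos it ran from 14.5 to 42.7 with a median of 24.4 in XX and from 7.42 to 44.6 with a median of 15.3 in XY. All but 1 of the 17 XX embryos lay above the XY median, and 1 XY embryo, D3402.3 (F3) at 44.6, lay above every XX embryo. The log2 difference was 0.59 (SE 0.16), or 1.51-fold, with limma's adjusted p = 0.000761, and in exposed embryos 0.64 (SE 0.11, limma's adjusted p = 6.63e-07).

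Rbl2 (p130), the pocket protein of quiescent cells, was low in both sexes. It ran from 1.73 to 5.01 with a median of 2.52 in vehicle XX embryos and from 1.25 to 6.58 with a median of 3.19 in vehicle XY embryos. The groups overlapped and the log2 difference of -0.14 (95% interval -0.41 to 0.13) had limma's adjusted p = 0.383. In exposed embryos the log2 difference was -0.25 (SE 0.10, limma's adjusted p = 0.0201). Rb1 made up 91.4 ± 1.90% of the sum of Rb1 and Rbl2 per kilobase in vehicle XX and 85.9 ± 4.47% in vehicle XY embryos.

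Counted over members, limma called 7 of 10 between the sexes in vehicle embryos, where it called 56.5% of 13288 genes tested. Higher in XX were 5 members (28.6% of all genes) and higher in XY were 2 (27.9%). Over 2-fold and higher in XX were Ccnd1 and Cdkn2d (8.10% of all genes), and by limma's log2 differences no member was over 2-fold higher in XY (7.91%). This 0 depends on the tool: edgeR's likelihood ratio test called both Ccnd2 (-1.09) and Cdkn1b (-1.16) at over 2-fold. In exposed embryos, which are other embryos but share the fit's residual variance with the vehicle comparison, limma called 9 of 10 members, against 67.4% of all genes. Higher in XX were the same 5 members (33.6% of all genes) and higher in XY were 4 (33.8%). With 10 members, no test of these shares against those of all genes was made.

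The sex differences themselves were not shown to differ between exposed and vehicle embryos. For the exposed minus the vehicle sex difference limma called 0 of 10 members and 0% of 13288 genes. At an unadjusted p under 0.05 there were 0 members and 261 genes, and edgeR's likelihood ratio and quasi-likelihood tests called 0 members each, and 4 and 7 genes. For Ccnd1 the estimate was -0.49 (95% interval -1.14 to 0.16), and for Cdkn2d it was -0.26 (-0.65 to 0.13).

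**Figure D2:**
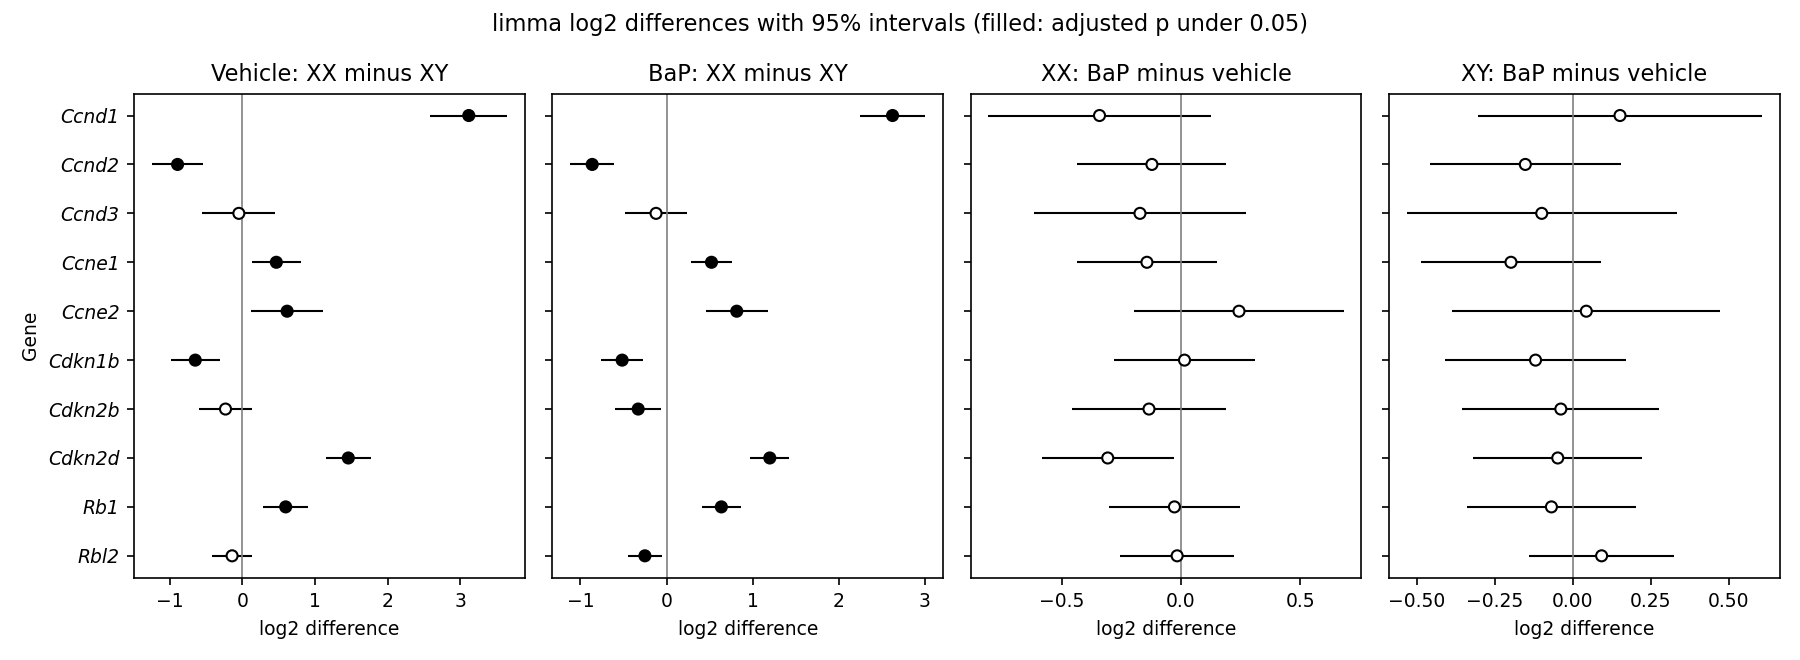
limma's log2 differences (x axes, a different scale in each panel) of the 10 genes (y axis) over all generations, with 95% intervals as lines. The left panels give XX minus XY in vehicle and in BaP embryos, and the right panels give BaP minus vehicle in XX and in XY; the right panels share their vehicle embryos with the left-most panel. Filled points have an adjusted p under 0.05, which holds for 7 genes in the vehicle panel, 9 in the BaP panel and 0 in each of the right panels.

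Sibs of both sexes were sequenced in 42 litters, 15 of vehicle and 27 of BaP lines. The mean of the XX sibs was above that of the XY sibs in 42 of 42 litters for Ccnd1, in 41 for Cdkn2d, in 37 for Rb1 and in 36 each for Ccne1 and Ccne2. The XY sibs were higher in 39 litters for Ccnd2, in 36 for Cdkn1b, in 29 for Rbl2, in 28 for Cdkn2b and in 24 for Ccnd3. For Rbl2 the XY embryos were higher in 7 of 15 vehicle litters and in 22 of 27 exposed litters. Within litters, Ccnd1, Cdkn2d and Ccnd2 thus kept their direction in all or nearly all, and Ccnd3 split almost evenly.

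**Figure D3:**
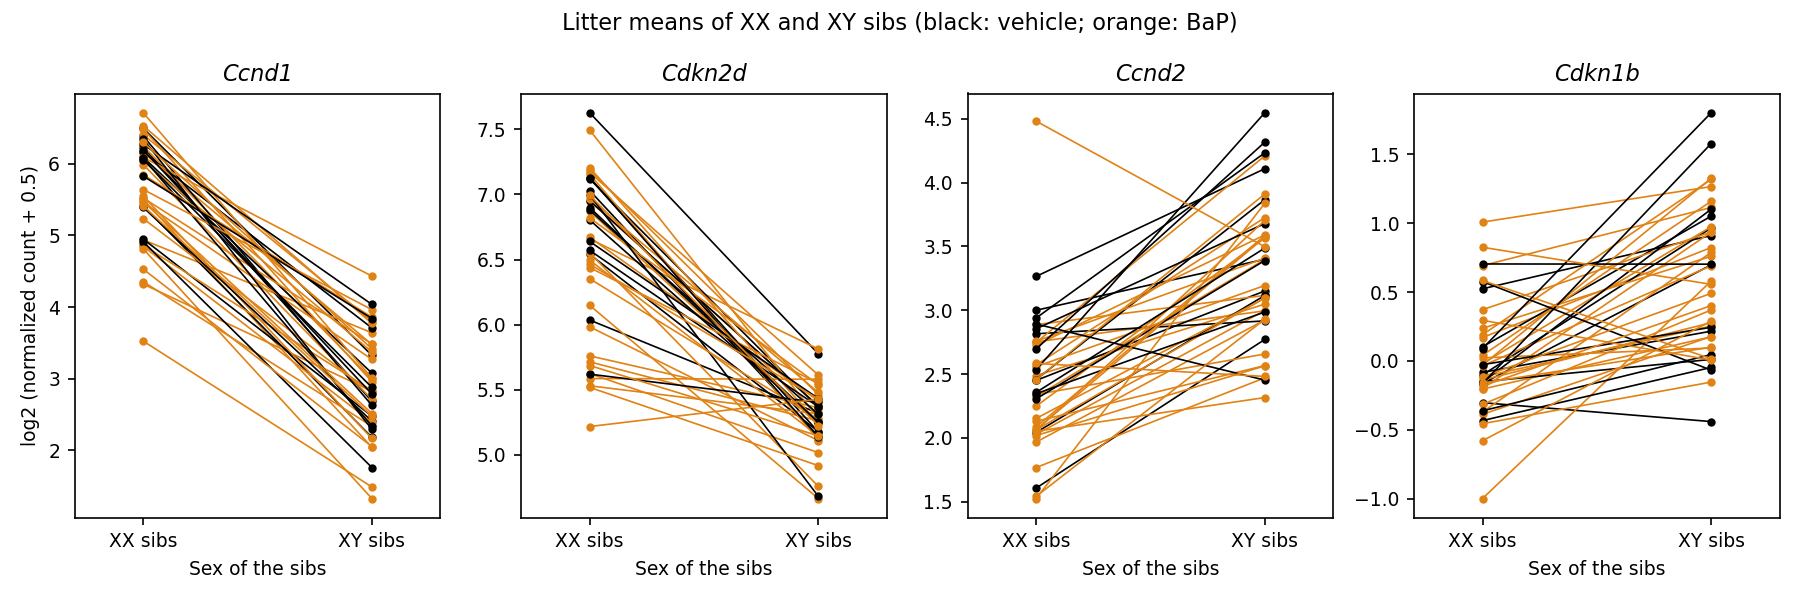
Means of XX and XY sibs (x axes) of each of the 42 litters with both sexes for 4 genes, as log2 of the normalized count plus 0.5 (y axes, a different scale in each panel). A line joins the sibs of a litter, black for vehicle and orange for BaP. Ccnd1 falls from XX to XY in 42 of 42 litters and Ccnd2 rises in 39.

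Ccnd1 and Cdkn2d were called between vehicle sexes in each generation. In F1, Ccnd1 was at 30.4, 41.5, 49.1, 74.8 and 89.9 in XX and at 1.69, 4.79, 5.06, 5.92 and 9.51 in XY. In F2 it ran from 29.6 to 72.7 (median 66.7) in XX and from 2.88 to 7.93 (median 5.47) in XY, and in F3 from 27.6 to 83.2 (median 74.1) in XX and from 4.39 to 15.9 (median 9.48) in XY. The sexes did not overlap in any generation, with log2 differences of 3.34, 3.29 and 2.76 (limma's adjusted p = 1.12e-06, 9.33e-12 and 6.26e-05).

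Cdkn2d in F1 was at 65.1, 94.5, 124, 139 and 197 in XX and at 39.4, 40.7, 40.9, 41.2 and 54.3 in XY. In F2 it ran from 48.7 to 130 (median 114) in XX and from 34.8 to 41.8 (median 37.6) in XY, and in F3 from 57.3 to 140 (median 125) in XX and from 25.2 to 43.4 (median 38.3) in XY. The sexes did not overlap in any generation here either, with log2 differences of 1.42, 1.37 and 1.57 (limma's adjusted p = 0.000119, 8.61e-07 and 4.80e-05). Both genes stayed called when any single embryo of the generation was left out.

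In all, limma called 2 members in F1 (23.8% of 13635 genes), 4 in F2 (41.1% of 13083 genes) and 5 in F3 (32.2% of 13139 genes). Besides Ccnd1 and Cdkn2d, limma's calls were Ccnd2 (log2 difference -0.99, adjusted p = 0.00118) and Rb1 (0.68, adjusted p = 0.0120) in F2, and Ccnd2 (-0.93, adjusted p = 0.0445), Ccne1 (0.74, adjusted p = 0.0379) and Cdkn1b (-0.90, adjusted p = 0.0194) in F3. The F2 call of Ccnd2 ended without the embryos highest in somatic markers (-0.54, limma's adjusted p = 0.0674). So did the F3 calls of Ccnd2 (-0.61, limma's adjusted p = 0.194) and Ccne1 (0.69, limma's adjusted p = 0.122).

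The F3 calls other than Ccnd1 and Cdkn2d each ended when 1 of certain vehicle embryos was left out, in some cases with a larger estimate. The Ccnd2 difference, for example, was -0.97 without D3651.2 and -0.93 with all embryos. Ccnd2 was no longer called in F3 without D1344.2, D1344.3, D1388.1, D3526.1, D3612.1, D3612.2, D3651.1 or D3651.2 (log2 difference -0.72 to -0.97, limma's adjusted p 0.0547 to 0.125). Ccne1 was no longer called without D1344.3, D1388.1, D3402.3, D3526.1, D3612.1, D3612.2 or D3651.1 (0.62 to 0.75, limma's adjusted p 0.0549 to 0.0997). Cdkn1b was no longer called without D3402.3 (-0.77, limma's adjusted p = 0.0501) or D3651.1 (-0.72, adjusted p = 0.0668). Without D3402.3, the XY embryo high in several members, limma called Ccne2 (1.02, adjusted p = 0.0178) and Rb1 (0.68, adjusted p = 0.0326).

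Other members gained a call when 1 embryo was left out in F1 or F2. Ccnd2 in F1 (-0.73, limma's adjusted p = 0.0558) was called without C3774.3, C4232.9, C4578.2, D2582.1 or D2593.1 (-0.73 to -0.90, limma's adjusted p 0.0258 to 0.0490). Of these, C4578.2, D2582.1 and D2593.1 were exposed at the high dose, and the estimate was -0.73 without each of them. Cdkn1b in F1 (-0.73, limma's adjusted p = 0.111) was called without D2580.2 (-0.94, adjusted p = 0.0450). Ccne2 in F2 (0.66, limma's adjusted p = 0.0552) was called without C4992.2, D3133.2 or D3133.5 (0.74 to 0.94, limma's adjusted p 0.00190 to 0.0459).

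Taking the litter as a block, with the correlation between sibs estimated, added 4 calls in F1 and F2 and ended none. With it limma called Ccnd2 (-0.77, adjusted p = 0.0130), Cdkn1b (-0.72, adjusted p = 0.0329) and Rb1 (0.76, adjusted p = 0.0129) in F1, and Ccne2 (0.66, adjusted p = 0.0486) in F2.

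No member was called across generations in vehicle embryos. limma's F tests over F1, F2 and F3 called 0 of 10 members in XX and in XY, and 0% of 13182 genes in each. At an unadjusted p under 0.05 there were 0 members and 206 genes in XX, and 1 member, Ccnd1, and 530 genes in XY. edgeR's likelihood ratio test called 0 and 18 genes, its quasi-likelihood test 0 and 1, and neither called a member. For a sex difference that varied with generation, limma called 0 members and 0% of 13182 genes, with 0 members and 158 genes at an unadjusted p under 0.05, and both edgeR tests called 0 genes.

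Against vehicle, no member was called in BaP embryos of either sex over generations. In XX at all doses limma called 0 of 10 members and 0% of 13288 genes, with 1 member (Cdkn2d) and 1152 genes at an unadjusted p under 0.05. In XY it called 0 of 10 members and 0% of genes, with 0 members and 151 genes at an unadjusted p under 0.05. edgeR's likelihood ratio test called 0 members and 4 and 1 genes in XX and XY, and its quasi-likelihood test 0 members and 1 and 4 genes. The log2 differences in XX ran from -0.34 for Ccnd1 (95% interval -0.81 to 0.12) to 0.24 for Ccne2 (-0.20 to 0.68), and in XY from -0.20 for Ccne1 (-0.49 to 0.09) to 0.15 for Ccnd1 (-0.30 to 0.61). Without the embryos highest in somatic markers, 11 exposed and 1 vehicle in XX, the XX estimate was -0.02 for Ccnd1 and -0.18 for Cdkn2d, against -0.34 and -0.31 with all embryos. Those left out included C4219.4, D3501.3 and E0103.2, which overlapped with XY in Ccnd1. Among those left out, the sum of meiotic entry markers ran from 190 in D4021.1 to 5110 in C4228.3. In exposed XX the somatic sum was led by Pecam1 and Aard (means 31.8 and 31.2). Whether their RNA came from other cells was not tested.

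By dose over generations, limma called 1.36% of 13288 genes in XX at the high dose, where 12 embryos stood against 17, and none of the 10 members. These 181 calls became 141 and 12 under edgeR's likelihood ratio and quasi-likelihood tests, 0 without the deepest libraries and 0 without the embryos highest in somatic markers. It called 0% at the low and the middle dose in XX and at each dose in XY. Unadjusted p-values under 0.05 were found for 277 and 140 genes in XX at the low and the middle dose and for 621, 447 and 519 genes in XY at the low, the middle and the high dose. In these 5 comparisons edgeR's likelihood ratio test called 28, 1, 0, 7 and 0 genes and its quasi-likelihood test 10, 1, 0, 8 and 2, with 0 members in each. Of the 60 tests of members in the 6 dose comparisons, 4 had an unadjusted p under 0.05: Cdkn2d in XX at the low and the high dose, Ccne1 in XY at the low dose and Ccnd2 in XY at the middle dose.

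Within sex and generation, limma called 0 of 10 members in each of 18 comparisons of a dose with vehicle. It called 1 gene in F1 XX at the high dose (0.00733% of 13635) and 19 genes in F2 XY at the middle dose (0.145% of 13083), and 0% in the other 16. In those 16 comparisons 25 to 2018 genes had an unadjusted p under 0.05, edgeR's likelihood ratio test called 0 to 91 genes and its quasi-likelihood test 0 to 5. Of the 180 tests of members 19 had an unadjusted p under 0.05, and both edgeR tests called 0. Comparisons of several doses with the same vehicle embryos are not independent.

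Cdkn2d in exposed XX embryos is the member with the lowest p in the comparison over all doses. In F1 XX it was at 105 and 142 at the low dose, at 70.5, 117, 143, 145 and 201 at the middle dose, and at 47.5, 52.0, 53.7, 100.51 and 101.5 at the high dose, against 65.1 to 197 in vehicle. In F2 XX it was at 45.7, 62.8 and 86.2 at the low dose, at 93.3, 113 and 123.04 at the middle dose, and at 87.8, 89.7 and 147 at the high dose, against 48.7 to 130 in vehicle. In F3 XX it was at 36.7, 51.0, 125 and 180 at the low dose, at 45.3 and 48.9 at the middle dose, and at 41.4, 81.2, 102 and 127 at the high dose, against 57.3 to 140 in vehicle.

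Values of Cdkn2d under every vehicle embryo of the generation were found in 3 embryos at the high dose in F1, in 1 at the low dose in F2, and at all doses in F3, with 2 embryos at the low, 2 at the middle and 1 at the high dose. All these groups but the F3 middle dose overlapped with vehicle. An unadjusted p under 0.05 was found in F1 at the high dose (-0.78, limma's adjusted p = 0.374), in F2 at the low dose (-0.64, limma's adjusted p = 1) and in F3 at the middle dose (-1.21, limma's adjusted p = 0.337). Over generations, 22 of 31 exposed XX embryos lay under the vehicle median, with a log2 difference of -0.31 (limma's adjusted p = 0.563; -0.18 without the embryos highest in somatic markers), and at the high dose 10 of 12 did, with -0.42 (limma's adjusted p = 0.125).

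Ccnd1 also had values under every vehicle embryo in these 5 XX groups. At the high dose in F1 it was at 19.5, 28.3, 30.2, 37.2 and 67.7, and at the low dose in F2 at 28.6, 43.7 and 49.5, against 30.4 to 89.9 and 29.6 to 72.7 in vehicle. In F3 it was at 10.99, 22.6, 65.2 and 105 at the low dose, at 19.9 and 27.6 at the middle dose, and at 7.47, 45.5, 61.5 and 78.4 at the high dose, against 27.6 to 83.2 in vehicle. Under every vehicle embryo lay 3 embryos in F1, 1 in F2, and 2, 1 and 1 at the 3 doses in F3, and each group had others within the vehicle range. Over generations at the high dose the log2 difference was -0.54 (95% interval -1.12 to 0.04, limma's adjusted p = 0.252).

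The sums of markers of meiotic entry in these groups had medians of 885 in F1 XX at the high dose and 620 in F2 XX at the low dose, against vehicle medians of 1228 and 1301. In F3 XX the medians were 894 at the low and 1059 at the high dose, and the 2 embryos at the middle dose lay at 190 and 321, against a vehicle median of 1094. All 4 markers were in the table and Sycp3 was the most abundant.

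The male germ cell markers, led in exposed XX by Tdgf1 (mean 1.20), also differed in some of these embryos. Their sum was 0.238, 0.816, 1.69, 5.77 and 6.39 in F1 XX at the high dose, 0.141, 0.386 and 1.22 in F2 XX at the low dose, and in F3 XX 0, 0.132, 5.12 and 6.47 at the low dose, 4.73 and 7.66 at the middle dose, and 0.779, 1.44, 1.83 and 7.61 at the high dose. In all vehicle XX embryos it ran from 0.0899 to 1.73, so 2 of 5 F1, 0 of 3 F2 and 6 of 10 F3 embryos lay above vehicle. The sum of the 6 somatic lists ran from 96.4 to 189 in F1 XX at the high dose (vehicle 87.1 to 106.6). In F2 XX at the low dose it ran from 79.2 to 118 (vehicle 66.3 to 121). In F3 XX (vehicle 66.0 to 108) it ran from 79.6 to 207 at the low dose. At the middle and the high dose there it ran from 111 to 125 and from 67.4 to 131. Erythroid markers, which that sum leaves out, summed to 229, 586 and 618 in F2 XX at the low dose, against 0 to 223 in vehicle XX. They ran from 0.272 to 1653 in F1 XX at the high dose. In F3 XX they ran from 0.132 to 6.53, 0.690 to 2.64 and 0.458 to 1271 at the low, middle and high dose. The part of any of these lists in the values of Ccnd1 and Cdkn2d was not tested.

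**Figure D4:**
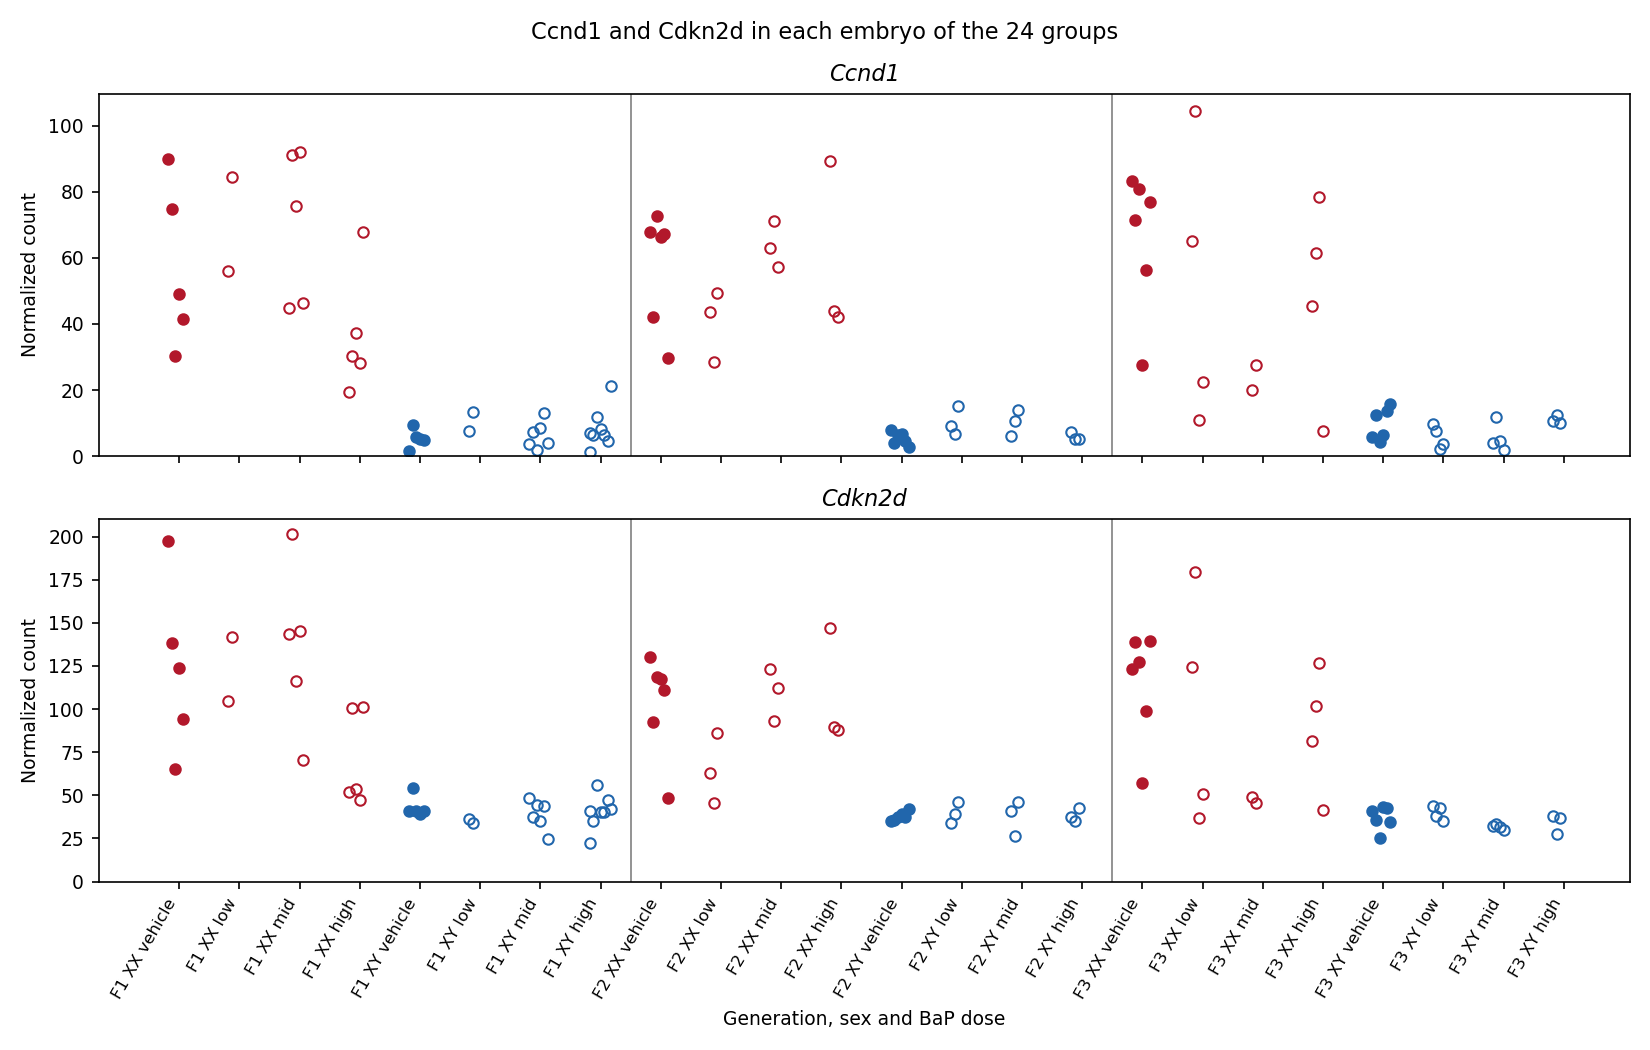
Normalized counts (y axes, starting at 0) of Ccnd1 and Cdkn2d in each embryo of the 24 groups of generation, sex and dose (x axis). Red is XX, blue is XY, filled points are vehicle and open points BaP, and vertical lines part the generations. In F3 XX at the middle dose Cdkn2d lies at 45.3 and 48.9, under each of the 6 vehicle embryos.

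Cdkn2b in XY embryos was high at all doses in F2 and low at the middle dose in F3. In F2 XY it was at 2.55, 2.72 and 3.38 at the low dose, at 3.27, 3.40 and 3.91 at the middle dose and at 2.87, 3.40 and 4.21 at the high dose, against 1.09 to 2.27 (median 1.73) in 6 vehicle embryos. In F3 XY it was at 1.02, 1.46, 1.57 and 2.82 at the low dose, at 0.504, 1.43, 1.51 and 1.72 at the middle dose and at 1.495, 1.99 and 3.19 at the high dose, against 2.21 to 5.96 (median 2.38) in 6 vehicle embryos. Each of the 9 exposed F2 embryos lay above each vehicle embryo, while in F3 the middle dose lay wholly below vehicle. At the low and the high dose in F3, 3 of 4 and 2 of 3 embryos lay below every vehicle embryo, and the others overlapped with vehicle. In F3 XX, 3 of 4, 2 of 2 and 2 of 4 embryos at the low, middle and high dose lay below every vehicle embryo. In F2 XX no exposed embryo lay outside the vehicle range.

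For Cdkn2b the log2 differences in F2 XY were 0.60, 0.86 and 0.84 at the low, middle and high dose (limma's adjusted p = 1, 0.161 and 0.834), and in F3 XY they were -0.65, -0.96 and -0.34 (limma's adjusted p = 0.970, 0.169 and 0.9999). Over all doses and generations it was -0.04 in XY. The exposed F2 embryos held 18 to 35 reads of Cdkn2b and their vehicle embryos 7 to 27. Whether the dose differences differ between F2 and F3 was not tested.

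Ccnd2 in XY embryos was low at the middle dose in F2 and F3. It was at 5.42, 7.09 and 8.05 in F2 against 7.05 to 22.9 in vehicle, and at 4.02, 4.48, 5.04 and 6.22 in F3 against 4.97 to 19.4 in vehicle. Both groups overlapped with vehicle, with log2 differences of -0.72 and -1.02 (limma's adjusted p = 0.376 and 0.329). At the high dose in F2 it was at 5.41, 7.12 and 8.65 (-0.68, limma's adjusted p = 1). In F1 at the middle dose it was at 6.18 to 10.1 (median 8.91), against 5.20, 6.33, 8.38, 9.98 and 10.05 in vehicle. Of these 6 exposed embryos 3 lay under the vehicle median of 8.38. Over generations the log2 difference at the middle dose was -0.51 (limma's adjusted p = 0.9997), while in F1 at the low dose both XY embryos, at 12.7 and 19.0, lay above vehicle (0.96, limma's adjusted p = 0.727).

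Sertoli sums of these XY groups overlapped with those of vehicle embryos, and their difference was not tested. In F2 XY at the middle dose they were 13.4, 136 and 196, against 176 to 516 in vehicle. At the high dose in F2 XY they were 79.3, 126 and 272. In F3 XY at the middle dose they were 44.0, 54.0, 134 and 136, against 29.5 to 428. In F1 XY at the low dose they were 289 and 790, against 53.6 to 327. The embryo with 790 was D2595.1, in which Ccnd2 was at 19.0. Whether Sertoli RNA has a part in these Ccnd2 values was not tested.

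Single groups of other members also had an unadjusted p under 0.05. Ccne1 in F1 XY at the low dose was at 16.1 and 30.2 against 42.9, 44.8, 54.4, 69.7 and 71.7 in vehicle (log2 difference -1.31, limma's adjusted p = 0.708), and in F3 XY at the middle dose at 71.9, 75.2, 99.7 and 102 against 33.8 to 89.1 (0.75, limma's adjusted p = 0.359). Cdkn1b in F3 XY at the middle dose was at 0.336, 0.572, 0.575 and 0.630 against 0.508 to 2.99 (-0.87, limma's adjusted p = 0.314). Ccnd1 in F2 XY was at 6.62, 9.13 and 15.1 at the low dose and at 6.04, 10.6 and 14.0 at the middle dose against 2.88 to 7.93 (0.85 at each dose, limma's adjusted p = 1 and 0.295).

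In XX, the members left to name are Ccne2 and Rb1 in F2. Ccne2 at the high dose was at 91.8, 141 and 212 against 31.2 to 145 in vehicle (log2 difference 0.77, limma's adjusted p = 0.810). Rb1 at the middle dose was at 23.7, 34.8 and 38.5 against 15.49 to 31.5 (0.55, limma's adjusted p = 1). Ccnd3 and Rbl2 had no unadjusted p under 0.05 in any of the 18 comparisons.

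The kinases that the cyclins activate were lower in XX. Of 7 genes listed as G1 kinases and their partners, limma called 5 lower and 0 higher in vehicle XX than XY, with a list median of -0.45 beside -0.00 for all genes. Cdk6 had a mean of 2.84 in XX and 10.2 in XY (log2 difference -1.67, limma's adjusted p = 3.55e-18), and Cdk4 had 193 and 435 (-1.20, adjusted p = 9.71e-14). Cdk2, the partner of cyclin E, had 17.6 and 24.3 (-0.45, limma's adjusted p = 0.000102), and Cdc25a, a phosphatase that activates Cdk2, had 14.4 and 18.1 (-0.31, adjusted p = 0.0283). XX libraries thus had more Ccnd1 RNA and less RNA of Cdk4 and Cdk6, which it activates. Whether Sertoli RNA in the XY libraries has a part in the values of these kinases, or of the lists below, was not tested.

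Of 4 other CDK inhibitors 3 passed the filter and Cdkn2c did not. limma called 2 higher and 0 lower in XX, with a list median of 0.44. Cdkn1c (p57) had a mean of 41.5 in XX and 24.9 in XY (log2 difference 0.87, limma's adjusted p = 2.32e-05), and Cdkn1a (p21) had 54.6 and 41.3 (0.44, adjusted p = 0.00416). Cdkn2a had 0.682 and 0.822 (-0.07, limma's adjusted p = 0.788).

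The E2F factors and their partners were called in both directions. Of 11 genes of E2F factors, DP partners and p107, limma called 2 higher and 4 lower in XX, with a list median of -0.08. E2f6 had means of 17.5 in XX and 23.9 in XY (log2 difference -0.46, limma's adjusted p = 0.00148), E2f7 had 2.85 and 4.23 (-0.47, adjusted p = 0.00450), E2f4 had 17.6 and 27.3 (-0.62, adjusted p = 0.00932) and Tfdp2 had 71.6 and 60.9 (0.27, adjusted p = 0.0169). The first 3 of these repress transcription and Tfdp2 is a DP partner.

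Of 6 genes of the DREAM complex, which Rbl2 joins in quiescent cells, limma called 0 higher and 3 lower in XX, with a list median of -0.16. Lin37 had means of 67.9 in XX and 122 in XY (log2 difference -0.85, limma's adjusted p = 8.30e-10), Dyrk1a had 16.6 and 22.9 (-0.43, adjusted p = 2.82e-05) and Lin52 had 16.6 and 20.4 (-0.28, adjusted p = 0.0423). Lin9, with 35.5 and 30.2, was not called (0.28, limma's adjusted p = 0.0584). The kinase Dyrk1a phosphorylates Lin52, a step in the assembly of the complex.

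Genes that turn over cyclin E and p27 were mostly lower in XX. Of 6 genes limma called 1 higher and 5 lower, with a list median of -0.53. Skp2, which with Cks1b targets p27 for degradation, had means of 8.41 in XX and 17.2 in XY (log2 difference -1.03, limma's adjusted p = 1.51e-07), and Cks1b had 402 and 637 (-0.66, adjusted p = 3.71e-05). Fbxw7, which targets cyclin E, had 17.0 and 25.1 (-0.56, limma's adjusted p = 5.48e-05), and the scaffold Cul1 had 273 and 171 (0.69, adjusted p = 7.83e-09).

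Of 20 E2F target genes of S phase and division, limma called 4 higher and 4 lower in XX, with a list median of 0.10. Cdk1 had means of 195 in XX and 245 in XY (log2 difference -0.32, limma's adjusted p = 1.31e-05) and Mcm2 had 59.9 and 83.7 (-0.50, adjusted p = 0.000141). Rrm2 had 197 and 127 (0.68, limma's adjusted p = 0.000231) and Orc1 had 24.03 and 16.3 (0.52, adjusted p = 0.000377). The targets of E2F thus did not move in 1 direction between the sexes, and their median absolute difference of 0.25 was below that of all genes, 0.39.

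In exposed embryos the same lists had, higher and lower in XX, 2 and 5 of the G1 kinases, 2 and 0 of the other inhibitors, 2 and 4 of the E2F and DP genes, 0 and 2 of DREAM, 1 and 5 of the turnover genes and 5 and 4 of the E2F targets. Of all genes 33.6% were called higher and 33.8% lower there, and 28.6% and 27.9% in vehicle embryos, and the lists were not tested against these shares. Against vehicle, limma called 0 genes of the 6 lists in XX and in XY at all doses.

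For each member, the genes with the most similar pattern over all embryos were sought by Pearson's r of log2 values, as a description. For Ccnd1 they were Stra8 (r = 0.947), which is needed for entry into meiosis, and Mxd4 (0.947), and for Cdkn2d they were Tmed3 (0.952) and Meiob (0.936), a meiotic DNA-binding protein. Stra8 had means of 416 in vehicle XX and 2.72 in vehicle XY, and Meiob had 15.8 and 0.486. After removal of the 24 group means, Ccnd1 was nearest to Mxd4 (0.846) and Limd2 (0.808) and Cdkn2d to Tmed3 (0.836) and Hagh (0.805). Tmed3 was thus nearest to Cdkn2d both ways, and Mxd4 was among the 2 nearest to Ccnd1 both ways.

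Of the other cyclins, Ccne1 was nearest to Rrm2 (r = 0.898) and Psat1 (0.862), and within groups to Hdac1 (0.878) and Rrm2 (0.862). Ccne2 was nearest to Hprt (0.919) and Med7 (0.916), and within groups to Hprt (0.915) and Nkiras1 (0.898). Ccnd3 was nearest to Trip10 (0.914) and Ranbp3 (0.912), and within groups to Bysl (0.938), which overlaps it on the opposite strand, and Ckb (0.928). Ccnd2 was nearest to Ech1 (0.819) and 6030408B16Rik (0.817), and within groups to Gadd45g (0.672) and Tmem176b (0.668).

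Among the rest, Rb1 was nearest to Esco1 (r = 0.837) and Arfgef1 (0.824), and within groups to Usp9x (0.810) and Zmym5 (0.809). Cdkn1b was nearest to Irf2bp2 (0.629) and Mir5117 (0.628). Rbl2 was nearest to Wtap (0.594) and Tmem41b (0.592), and within groups to Styx (0.602) and Rab5a (0.596). Cdkn2b was nearest to Ascl2 (0.525) and D18Ertd653e (0.517), and within groups to Efna4 (0.478) and D18Ertd653e (0.460).

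Among the members themselves, within groups, Ccnd3 ran with Ccne1 (r = 0.736) and against Ccne2 (-0.626) and Rb1 (-0.533), and Rb1 ran with Rbl2 (0.498). Ccne1 and Ccne2, the E-type pair, were not alike within groups (-0.198).

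Promoters of 250 bases before to 50 bases after the start were in the RefSeq table (GRCm38.p6) for 6 of 10 members, with 2 for Ccnd3, and not for Ccnd1, Ccnd2, Ccne2 and Rb1. They were searched on both strands for the E2F words TTTGGCGC, TTTCCCGC, TTTGCCGC, TTTCGCGC, TTTGGCGG and TTTCCCGG and for the cell cycle homology words TTTGAA and TTCGAA. None of the 7 promoters held an E2F word, which 3.98% of 32851 promoters in the table did. Cdkn2b and Rbl2 each held TTTGAA on the opposite strand, 161 and 201 bases before the start, and 17.9% of all promoters held that word. A match is a run of letters and no more, and its absence says nothing of the factor.

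Promoters of 3 members that limma called between vehicle sexes are given, Cdkn2d and Ccne1 (higher in XX) and Cdkn1b (higher in XY), so that the members that moved in either direction can be compared. None of the words searched lies in them and no base is in capitals. Cdkn2d is from chr9:21291160-21291459 (minus strand), Ccne1 from chr7:38107441-38107740 (minus strand) and Cdkn1b from chr6:134920151-134920450 (plus strand). Their GC shares were 66.3%, 76.0% and 62.0%.
Cdkn2d: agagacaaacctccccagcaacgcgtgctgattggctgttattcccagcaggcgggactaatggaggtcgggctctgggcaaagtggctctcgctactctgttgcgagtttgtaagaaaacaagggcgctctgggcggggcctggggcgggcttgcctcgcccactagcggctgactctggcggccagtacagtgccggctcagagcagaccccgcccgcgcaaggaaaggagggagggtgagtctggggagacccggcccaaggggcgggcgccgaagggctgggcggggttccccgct
Ccne1: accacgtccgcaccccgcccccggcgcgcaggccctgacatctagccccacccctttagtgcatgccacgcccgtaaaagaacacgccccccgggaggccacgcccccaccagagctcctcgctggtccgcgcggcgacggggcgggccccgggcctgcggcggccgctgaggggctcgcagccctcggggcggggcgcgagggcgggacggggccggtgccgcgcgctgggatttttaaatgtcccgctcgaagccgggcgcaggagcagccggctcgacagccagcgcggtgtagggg
Cdkn1b: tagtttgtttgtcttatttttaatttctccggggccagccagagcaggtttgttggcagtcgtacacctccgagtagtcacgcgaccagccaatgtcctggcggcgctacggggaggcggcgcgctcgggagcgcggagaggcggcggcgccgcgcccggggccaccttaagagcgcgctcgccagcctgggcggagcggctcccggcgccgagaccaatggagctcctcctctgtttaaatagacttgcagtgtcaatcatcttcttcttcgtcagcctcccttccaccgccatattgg

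Overlapping genes limit some values, since the kit is not stated to mark strand. On the opposite strand, exons of Ccnd1 share 1100 bases with LTO1, those of Ccnd3 share 361 with Bysl, those of Rb1 share 408 with Lpar6 and 488 with Rcbtb2, and those of Rbl2 share 693 with Aktip and 892 with Gm45464. Antisense RNAs overlap 368 and 372 exonic bases of Ccnd2. How far reads of these stretches entered the members' values was not tested, and neither protein nor the phase of the cell cycle was measured.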

How the data were processed

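The deposited table holds 1 normalized count (signal) per gene and embryo, which the authors made by aligning trimmed reads to GRCm38 with STAR, counting exon reads with Rsubread and scaling by TMM in edgeR. Each column belonged to 1 embryo, and its label gave the generation, sex, dose and a code read as the litter. Whole read counts could be recovered from the values for 99 of the embryos, with 5004382 to 87240533 reads and a median of 7789673. They could not be recovered for D4190.1 (F3 XY, high dose) and D1388.3 (F3 XX, vehicle).

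Because the values are normalized, limma 3.58.1 in R 4.3.3 was fitted with a trend to log2 of the value plus 0.5, for genes with a mean of 0.5 or more, and p-values were adjusted over all genes tested by the method of Benjamini and Hochberg. All tests were two-sided. One fit took 8 groups of sex and dose over all generations, 1 fit was made per generation, and F tests over generations used vehicle embryos. A gene was called at an adjusted p under 0.05. edgeR 4.0.16 was run on recovered reads as an alternative, beside other pseudocounts, filters and scalings, a term for generation or depth, litter blocks, and embryos left out. Removal of the deepest libraries and of D1390.5 was added after seeing the data. The scripts were tested on simulated data, and figures were drawn with matplotlib 3.10.9 in python 3.11.15.

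Named genes were all 10 members, up to 4 genes of each pathway list with the smallest p between vehicle sexes, for each member the 2 genes most alike over all embryos and, except for Cdkn1b, whose result is not reported, the 2 most alike within groups, and the most abundant gene of each marker list. Genes named beyond these are Eif2s3y, which checks the sex labels, Nanos2, a male germ cell marker, Cdkn2c, which was not tested, and genes whose exons overlap members. The members and lists were chosen with earlier results of these data known.

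Embryos were paired by the code in the labels, which was read as the litter. The labels do not spell out what this code stands for. In 15 vehicle litters with both sexes, the deviations of XX and XY sibs from their group means correlated with a median r of 0.495 (-0.588 to 0.807), over 0.1 in 11 litters, against a median of -0.0122 between litters.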

Additional observations from a re-analysis of the deposited data

Results flagged for a closer look

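Within groups of 4 to 10 embryos, the highest embryo lay far from the others by Dixon's test in 15 of 140 combinations of gene and group. For values with a normal spread the test flags about 1 in 20, or 7. The values were not on a log scale and the combinations share embryos, so that rate need not hold here. No lowest embryo was flagged, and no difference between groups met the rule for one.

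Among vehicle embryos, Ccne2 stood out in F1 XX at 324 in C4232.9 (next 113), in F1 XY at 212 in C3774.3 (next 77.4) and in F3 XY at 188 in D3402.3 (next 45.8). The F3 XY embryo D3402.3 also stood out for Rb1 at 44.6 (next 17.8) and for Rbl2 at 6.58 (next 3.20). The F2 XX embryo D3133.2 stood out for Ccnd3 at 103.4 (next 37.3) and for Cdkn1b at 0.991 (next 0.481).

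Cdkn1b stood out in F3 XX vehicle at 1.13 in D3612.1 (next 0.564). Cdkn2b stood out in F1 XX vehicle at 3.47 in D2580.1 (next 1.73) and in F3 XY vehicle at 5.96 in D1388.1 (next 2.78). Cdkn2d stood out in F1 XY vehicle at 54.3 in C4232.2 (next 41.2).

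Among exposed embryos, the F1 XY embryo D1190.1 at the middle dose stood out for Ccnd3 at 102 (next 37.0) and for Ccne1 at 127 (next 62.7). Ccne2 stood out in the same group at 207 in C4228.1 (next 99.9). Ccnd2 stood out in F3 XX at the low dose at 21.8 in D3744.1 (next 6.22). In D3744.1 the pregranulosa, stroma and summed somatic markers were at 22.5, 54.2 and 207, against at most 7.43, 21.8 and 121 in vehicle XX embryos. Of the embryos named in this section, C4232.9, C3774.3, C4228.1 and C4232.2 were among the deepest libraries. In D1388.1 the stroma, fetal Leydig and erythroid sums were 69.2, 36.3 and 4768. In the other vehicle XY embryos they were at most 6.37, 21.5 and 1415. Why the embryos named in this section stood apart was not tested.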

How the results depend on the processing

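No call of a member changed direction under any alternative. Some uncalled estimates near 0 changed sign, such as Ccnd3 between vehicle sexes (-0.05, from -0.11 to 0.07), and in XY at all doses Ccne2 (0.04, from -0.14 to 0.17) and Ccnd3 (-0.10, from -0.17 to 0.07). limma's 7 members called between vehicle sexes over generations became 6 to 7 over 16 alternatives, and the 9 in exposed embryos became 6 to 9 over 15. With a minimum mean of 5, Cdkn1b, Cdkn2b and Rbl2 could not be tested. Counts of 0 members for the doses, the generations and the exposed minus vehicle sex difference stayed at 0 throughout.

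Over F1, F2 and F3 together, the 11 calls between vehicle sexes became 9 to 15 over 14 alternatives and 8 to 12 with 1 embryo left out at a time. With the litter as replicate block they became 15, by the 4 calls given in the report, and the block changed no other call of a member. Ccnd2 in F1 was also called with median-of-ratios scaling (adjusted p = 0.0484), upper quartile scaling (0.0435), edgeR's likelihood ratio test (0.0475) and without the deepest libraries (0.0408), and Rb1 in F1 with a depth term (0.00342). Ccne2 in F2 was also called with both edgeR tests (0.0253 and 0.0347), with a depth term (0.0150) and without the embryos highest in somatic markers (0.0453). In F3, Ccnd2 was not called without a filter (0.0512) and with a minimum mean of 5 (0.0505). Nor was it called with upper quartile scaling (0.0567) or in a fit of the compared groups alone (0.0533). Its log2 difference was -0.93 in each of these. Without the embryos highest in somatic markers, Ccnd2 was not called at -0.61 (limma's adjusted p = 0.194). Ccne1 was not called with edgeR's quasi-likelihood test (0.71, adjusted p = 0.0567) and without those embryos (0.69, limma's adjusted p = 0.122). Its log2 difference in the main fit was 0.74. The causes were not tested.

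Of all genes, the 181 called in XX at the high dose over generations became 0 to 984, with 445 under the litter block. The low members rest on few reads, which limits their precision: Cdkn1b had 0 reads in 1 exposed XX embryo. Sibs are not independent, and groups of 2 to 8 embryos leave wide intervals. F2 and F3 embryos of different litters may also descend from the same dosed F0 dam, which the labels do not give, so they too may not be independent.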
